A study of Mus musculus with 4 samples.

Results

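Immediate early genes are genes that a cell switches on within minutes of a growth signal or an insult, without first making new protein. The set described here holds 10 of them in female germline stem cells: Fos, Fosb, Jun, Junb, Egr1, Ier2, Ccn1, Ccn2, Btg2 and Atf3. They were taken by name from the 53291 features of the deposited count table once its RefSeq transcript rows had been joined to mouse gene symbols, which 32812 features had. All 10 were found. The set was put together with earlier results of these data known, so it is not an independent sample of genes.

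As background, Fos and Fosb pair with Jun and Junb through leucine zippers to form AP-1, a transcription factor that binds DNA near many growth and stress genes. Growth factors switch Fos and Egr1 on through the MAP kinases ERK1 and ERK2, serum response factor (SRF) and its partners of the ELK family, and through the cyclic AMP response element (CRE) and its binding protein CREB. Ccn1 and Ccn2, also called Cyr61 and Ctgf, encode secreted matricellular proteins and are textbook targets of YAP, the effector of the Hippo pathway. Enzymatic dissociation of tissue and handling of cells are known to induce many of these genes, which makes them a common sign of sample preparation.

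The series holds 2 spermidine libraries and 2 control libraries, made from a C57BL/6 mouse line of female germline stem cells past more than 20 passages. The treated cells received spermidine, a polyamine, and both groups are described as 4 h profiles. No dose is stated in the labels, and no allele, transgene or other agent is listed for either group. The labels do not call the replicates separate cultures. Each p-value thus reflects the variation among 4 libraries, part of which could be technical. In bulk RNA, fewer cells of a type and less RNA per cell cannot be told apart.

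The libraries differed in depth and content. The spermidine libraries held 787600 and 1718944 counts and the control libraries 7206176 and 7128901. One row inside a ribosomal RNA gene, AY036118, held 29.6% of the counts in spermidine replicate 1 and 30.7% in replicate 2, against 1.68% and 1.64% in the controls. Exact binomial (Clopper-Pearson) limits at 95%, which cover counting error only, were 29.5 to 29.7 and 30.6 to 30.8 with spermidine, and 1.67 to 1.69 and 1.63 to 1.65 in control. Olfactory and vomeronasal receptor genes, known from sensory neurons, carried 3.20 and 0.173 counts per kilobase of unshared exon in the spermidine libraries, against 0.0597 and 0.154 in the controls. Scaled to the 2028 bases of Ccn1, that is 6.48 and 0.350 counts with spermidine, against 0.121 and 0.312 in control. Levels are given as CPM, the count scaled to a common library size after TMM correction, which corrects for a few rows that take many reads.

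Promoter sequences were taken from RefSeq on build GRCm38.p6 for 7 of the 10 genes. Those of Egr1, Ier2 and Ccn2 were not read, so the motif counts say nothing about these genes. Those of 4 genes are shown to cover the roles in the set: an AP-1 partner of each family (Fos, Jun), a YAP target (Ccn1) and the growth inhibitor whose change between groups was called (Btg2). Each run holds the 200 bases before the start in that table, 5′ to 3′ on the gene's strand. Capitals mark the CRE core TGACG on either strand (read as CGTCA on the other), the AP-1 element TGANTCA on either strand, and the TATA box TATAAA on the gene's strand.
Fos, chr12:85473690-85473889, plus strand: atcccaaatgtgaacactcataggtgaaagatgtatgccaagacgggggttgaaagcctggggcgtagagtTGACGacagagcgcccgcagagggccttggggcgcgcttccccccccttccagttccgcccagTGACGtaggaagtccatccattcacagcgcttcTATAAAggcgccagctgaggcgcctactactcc
Jun, chr4:95052223-95052422, minus strand: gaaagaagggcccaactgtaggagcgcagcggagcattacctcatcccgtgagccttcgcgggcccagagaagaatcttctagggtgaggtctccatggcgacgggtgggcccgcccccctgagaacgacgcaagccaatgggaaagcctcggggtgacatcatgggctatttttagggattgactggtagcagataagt
Ccn1, chr3:145649986-145650185, minus strand: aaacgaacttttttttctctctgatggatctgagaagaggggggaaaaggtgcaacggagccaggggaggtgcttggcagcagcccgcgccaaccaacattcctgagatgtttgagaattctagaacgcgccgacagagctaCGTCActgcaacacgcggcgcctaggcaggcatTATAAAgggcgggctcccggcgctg
Btg2, chr1:134079156-134079355, minus strand: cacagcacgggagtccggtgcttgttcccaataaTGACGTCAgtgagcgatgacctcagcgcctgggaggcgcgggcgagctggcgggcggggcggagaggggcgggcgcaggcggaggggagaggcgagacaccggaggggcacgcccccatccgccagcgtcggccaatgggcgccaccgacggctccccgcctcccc

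The CRE core was present in 6 of the 7 promoters, all but that of Jun, against 15.7% of 32851 RefSeq promoter windows of the same length. Fos held it at 66 and 129 bases before its start, Ccn1 at 58, and Btg2 at 166, where the core on both strands overlaps in the full palindrome TGACGTCA. That palindrome was in 1 of 7 member promoters and in 1.47% of all windows. TATAAA was in 2 of 7, Fos and Ccn1, at 33 and 25 bases before the start, and in 6.27% of all windows. The letters TGANTCA and the CArG box bound by SRF were in 0 of 7, against 5.48% and 1.18% of windows. CATTCC, the element read by the TEAD partners of YAP, was in 1, Ccn1, against 10.1%. A match is only a match of letters in this window, and nothing was measured on the promoters.

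Across the set, 9 genes had enough counts to be tested and 2 of them, Ccn2 and Btg2, were called higher in spermidine than in control by edgeR's quasi-likelihood test at an adjusted p under 0.05. None was called lower, with 3 of 9 at an unadjusted p under 0.05, and DESeq2 called 3 and limma-voom 2. Among all 7836 tested genes 29.0% were called, 24.9% higher and 4.12% lower, so the members' share of 22.2% higher lies near the background and is not a result about the set. The median log2 fold change was 0.74 for the members and 0.23 for all tested genes. Both spermidine libraries lay above both controls for 3 of 9 genes, against 36.6% of all tested genes. They lay below both controls for 0 of 9, against 29.6%. For the other 6 genes the groups overlapped.

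**Figure D1:**
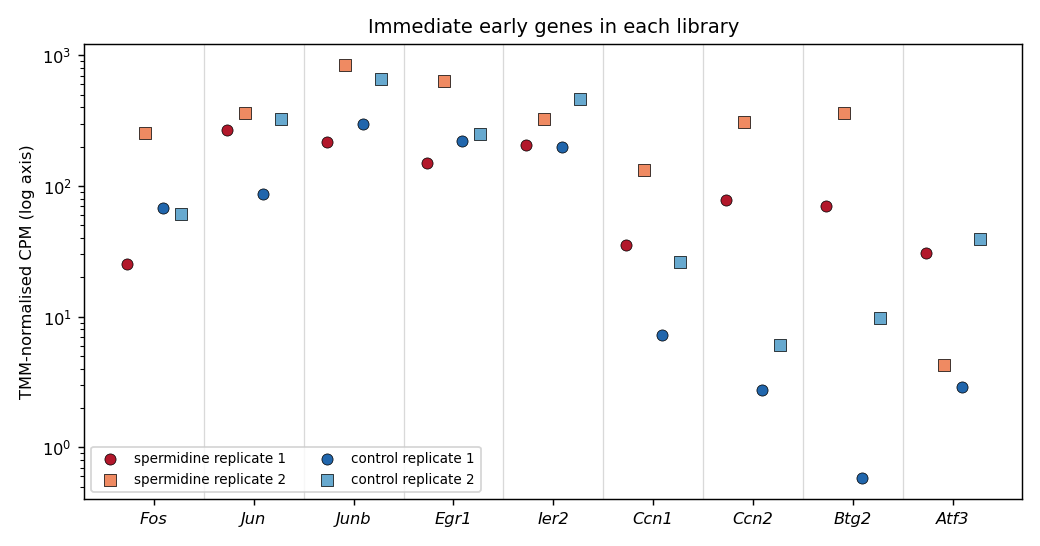
TMM-normalised CPM on a log axis for the 9 tested genes, with 1 point per library; Fosb is left out because it had 1 count in all. Ccn1, Ccn2 and Btg2 have both spermidine points above both control points, and the points of the other 6 genes overlap between groups.

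The 3 AP-1 genes that could be tested overlapped between the groups. Fos (chr12:85473901-85477269, plus strand, 4 exons), the dimer partner that Jun proteins need for strong DNA binding, had 22 and 357 counts in the spermidine libraries and 466 and 421 in the controls. As levels these were 25.2 and 254.1 CPM with spermidine, against 67.5 and 60.9 CPM in the controls. One spermidine library thus lay below both controls and the other above both. The log2 fold change of 1.15 ± 0.85 (SE) did not pass the test (adjusted p = 0.347), and without spermidine replicate 2 it was -1.29. Receptor background scaled to its length equals 6.69 of the 22 counts in spermidine replicate 1.

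Jun (chr4:95049036-95052222, minus strand, 1 exon), the AP-1 subunit that can also pair with itself, had 269.9 and 362.3 CPM in the spermidine libraries and 86.1 and 325.1 CPM in the controls. The spread between the controls was wider than that between the spermidine libraries. Its log2 fold change was 0.62 ± 0.67 (adjusted p = 0.525). Junb (chr8:84976909-84978748, minus strand, 1 exon), a Jun relative with weaker activity that can restrain Jun, had 218.4 and 848.5 CPM with spermidine and 300.4 and 654.0 CPM in the controls. Here the spermidine libraries lay on either side of both controls, and the log2 fold change was 0.17 ± 0.72 (adjusted p = 0.887). Dropping spermidine replicate 2 gave -1.05 and dropping control replicate 1 gave -0.24.

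Fosb (chr7:19302696-19310226, minus strand) could not be measured. Its 2 transcript rows share nearly all their exons, and only 228 of 3849 bases belong to a single row. Bases shared between rows seem not to have been counted, since transcripts made up wholly of them received 0.00140% of the counts or less in every library. Fosb had 1 count in spermidine replicate 1 and 0 in the other libraries, which is no sign that it is silent. The other 9 genes each had a single transcript row with every base its own.

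Egr1 and Ier2 were abundant in every library. Egr1 (chr18:34861207-34864956, plus strand, 2 exons), a zinc finger transcription factor induced by ERK signalling, had 149.8 and 632.8 CPM in the spermidine libraries. Its controls were close together at 220.7 and 251.0 CPM and lay between the spermidine values. The log2 fold change was 0.74 ± 0.68 (adjusted p = 0.455), and -0.59 without spermidine replicate 2. Ier2 (chr8:84661331-84662852, minus strand, 1 exon), a small nuclear protein of the early growth response, had 207.0 and 328.1 CPM with spermidine, against 199.7 and 461.0 CPM in the controls. Both spermidine values lay inside the range of the controls, with a log2 fold change of -0.30 ± 0.59 (adjusted p = 0.739), and of 0.42 without control replicate 2.

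Ccn2, the connective tissue growth factor gene (chr10:24595442-24598683, plus strand, 5 exons), had 68 and 432 counts in the spermidine libraries and 19 and 42 in the much deeper controls. These were 77.8 and 307.5 CPM with spermidine, against 2.75 and 6.08 CPM in the controls, with no overlap. Ccn2 rose by 5.45 ± 0.87 on the log2 scale (adjusted p = 0.00556). Its call was lost without control replicate 1 (adjusted p = 0.0664) and with no filter on low counts (0.253), with a range of 7.59e-10 to 0.253 over all alternatives. With 1 library left out, its log2 fold change lay between 4.21 (spermidine replicate 2 left out) and 6.12 (control replicate 2 left out).

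Ccn1 (chr3:145646971-145649985, minus strand, 5 exons), an adhesion-promoting relative of Ccn2, had 31 and 185 counts in the spermidine libraries and 50 and 180 in the controls. As levels these were 35.5 and 131.7 CPM, against 7.25 and 26.1 CPM in the controls. Both spermidine libraries lay above both controls, though spermidine replicate 1 was near control replicate 2. The log2 fold change of 2.36 ± 0.83 missed the threshold (adjusted p = 0.0658). It passed in 4 of 17 alternatives, with RLE factors (0.0487), upper-quartile factors (0.0417), DESeq2 (0.0281) and protein-coding genes without AY036118 (0.0433), within a range of 0.0281 to 0.428. The estimate became 1.18 when spermidine replicate 2 was left out, 1.75 for control replicate 1, 2.98 for spermidine replicate 1 and 3.54 for control replicate 2.

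Btg2 (chr1:134074865-134079155, minus strand, 2 exons), an antiproliferative partner of the CCR4-NOT deadenylase and a target of p53, is the gene with the full CRE palindrome printed above. It had 61 and 511 counts in the spermidine libraries and 4 and 68 in the controls, or 69.8 and 363.7 CPM against 0.580 and 9.84 CPM. The groups did not overlap, but the controls differed 17.0-fold from each other and the spermidine libraries 5.21-fold. Btg2 rose by 5.39 ± 1.17 on the log2 scale (adjusted p = 0.00918). The call was lost without spermidine replicate 1 (0.101), without control replicate 1 (0.0664) and with no filter on low counts (0.274), in a range of 1.71e-06 to 0.274. Its estimate became 3.83 when spermidine replicate 2 was left out, 4.51 for control replicate 1, 6.12 for spermidine replicate 1 and 8.46 for control replicate 2. Btg2 passed the low-count filter through the spermidine libraries, since only 1 control was past its cutoff of 2.26 CPM, so a high spermidine level favoured its being tested.

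Atf3 (chr1:191170296-191183333, minus strand, 4 exons), a stress-induced CREB-family factor that can repress AP-1 sites, had 27 and 6 counts in the spermidine libraries and 20 and 272 in the controls. Its levels were 30.9 and 4.27 CPM with spermidine, against 2.90 and 39.4 CPM in the controls. High and low libraries stood in both groups, and the log2 fold change was -0.41 ± 1.27 (adjusted p = 0.84). Dropping spermidine replicate 2 gave 0.65 and dropping control replicate 2 gave 2.49. Its SE was the widest of the 9 genes. Receptor background scaled to its length equals 6.32 of the 27 counts in spermidine replicate 1.

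**Figure D2:**
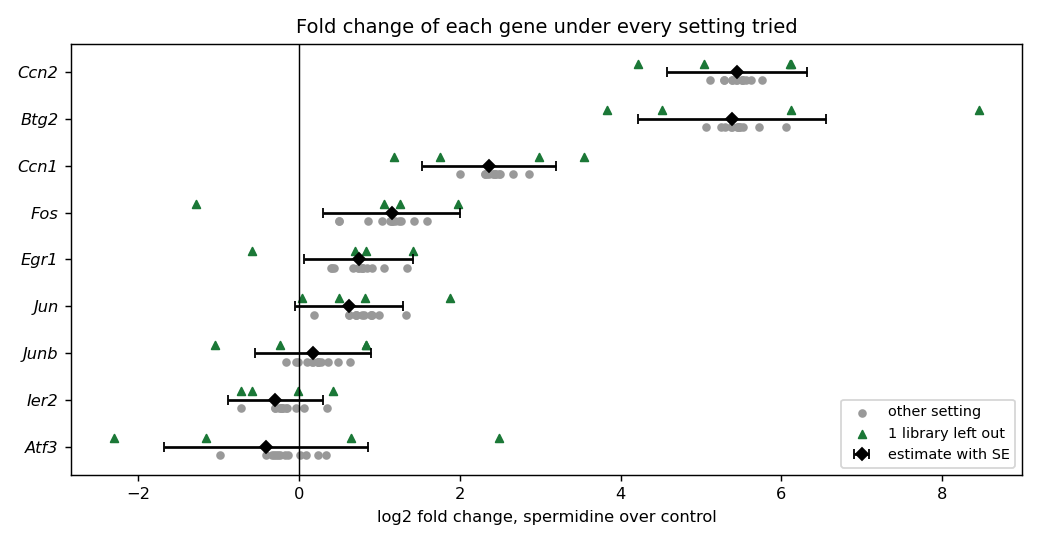
Log2 fold change, spermidine over control, for the 9 tested genes: black diamonds give the estimate with its SE, grey points other settings and green triangles fits with 1 library left out. Ccn2 and Btg2 stay above 3 in every fit, while Fos, Egr1, Junb, Ier2 and Atf3 take both signs.

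The order of levels was read per kilobase of unshared exon. In the spermidine libraries Junb was highest on average (289.9 CPM per kilobase), followed by Ier2 (175.8), Egr1 (127.4), Jun (99.2), Ccn2 (80.2), Btg2 (70.3), Fos (66.7), Ccn1 (41.2) and Atf3 (8.89). Every neighbour in that order overlapped in range except Ccn1 and Atf3. In the controls Junb (259.4) and Ier2 (217.0) also led, then Egr1 (76.8), Jun (64.5), Fos (30.7), Atf3 (10.7), Ccn1 (8.21), Ccn2 (1.84) and Btg2 (1.69). There Ier2 and Egr1, Fos and Atf3, and Ccn1 and Ccn2 did not overlap. Ccn2 and Btg2, the lowest of the 9 in the controls, were in the middle of the order with spermidine.

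All 9 tested genes differed at least 2-fold, up or down, between the replicates of at least 1 group. The same count was not taken over all tested genes, so it is not a result about the set. On the scale log2(CPM + 1), control replicate 2 exceeded control replicate 1 for 8 of 9 genes, by at least 2-fold for 6. Among all tested genes 47.4% were higher in control replicate 2 and 9.71% by at least 2-fold. Atf3 differed most, with a log2 ratio of 3.37 between the controls that only 0.319% of tested genes reached, followed by Btg2 with 2.78 (0.740%). Fos and Egr1 hardly differed, with -0.15 and 0.19. Spermidine replicate 2 also exceeded replicate 1 for 8 of 9 genes, by at least 2-fold for 6, against 47.5% and 23.8% of all tested genes. Fos had the largest spermidine ratio, 3.29, which 1.03% of tested genes reached, and Atf3 alone was lower in replicate 2, at -2.60.

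**Figure D3:**
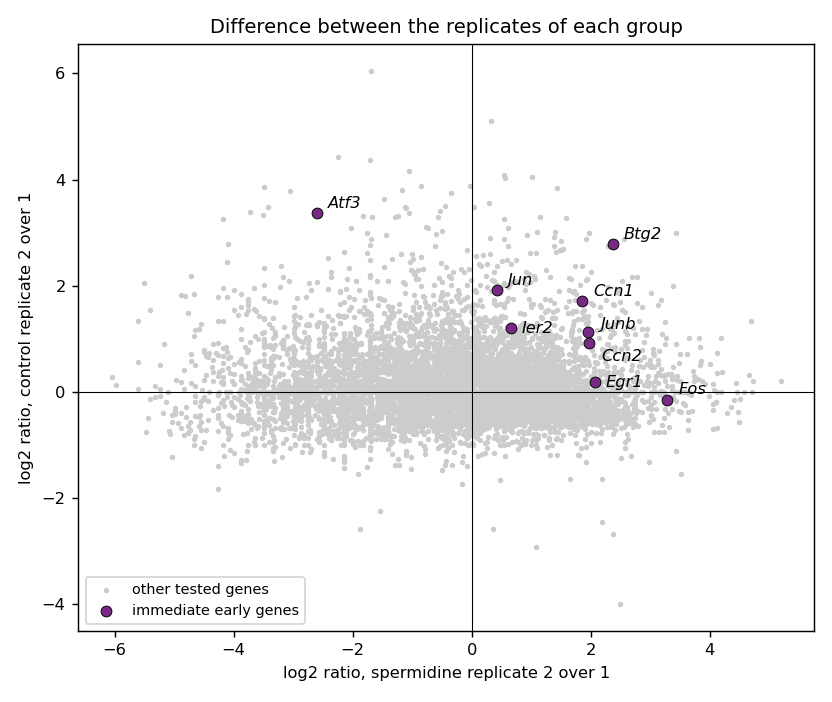
Log2 ratio of replicate 2 over replicate 1 in the spermidine group (horizontal) and the control group (vertical), on log2(CPM + 1), for the 9 immediate early genes (purple) and the other tested genes (grey). Of the 9 genes, 7 lie in the upper right, Atf3 is in the upper left, and Fos lies to the right just below 0 on the vertical axis.

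The wider immediate early response was read from a list of 50 other genes, chosen with earlier results of these data known. Of these, 35 were tested, and 1 was higher (2.86%, against 24.9% of all tested genes). Another 2 were lower, as were 4.12% of all tested genes. The median log2 fold change was 0.08 (0.23 for all tested genes). Sgk1, a serum-induced kinase, rose by 4.98 ± 1.05 (adjusted p = 0.00617), with 12 and 5 counts in the spermidine libraries against 1 and 2 in the controls. At so few control counts a fitted change depends on the prior count and is no bound. Both controls were under the filter's cutoff of 2.26 CPM, so Sgk1 was tested only because of its spermidine level. At 3.20 receptor counts per kilobase in spermidine replicate 1, background over its 1776 bases could make up part of the 12 counts. Ier3, an early response gene linked to cell survival, had 107.0 and 59.8 CPM in the spermidine libraries and 462.0 and 424.0 CPM in the controls. It fell by 2.42 ± 0.56 on the log2 scale (adjusted p = 0.0118). Dusp2, a nuclear phosphatase that switches ERK off, was the other gene lower, with 23 and 9 counts against 807 and 811, and fell by 2.95 ± 0.73 (adjusted p = 0.0156). Control replicate 2 was above control replicate 1 for 33 of 35, by at least 2-fold for 10, against 47.4% and 9.71% of all tested genes.

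Upstream of these genes, 9 of 27 MAP kinase and SRF pathway genes were tested. Of these 9, 0 were called in either direction (edgeR), against 29.0% of all tested genes. Their median log2 fold change was -0.34. Mapk3, which encodes ERK1, had 1.20 ± 0.58 (adjusted p = 0.161). The ETS factor gene Elk1, an SRF partner, had -0.52 ± 0.56 (adjusted p = 0.528). Of these 27 genes, 15 had under 300 bases of their own and could hardly be seen. Of 20 genes of the YAP and TEAD pathway and the CCN family, 7 were tested, 2 were higher and 0 lower, with a median of 1.71. The share of 28.6% higher lies near the 24.9% of all tested genes and is not a result about the pathway. Ccn5, a CCN protein without the C-terminal domain, had 18 and 21 counts in the spermidine libraries and 0 and 1 in the controls, and rose by 7.40 ± 1.24 (adjusted p = 0.00584), a fitted value that is no bound either. It too was tested only through its spermidine level. Arhgef17, a guanine nucleotide exchange factor for RhoA, rose by 2.70 ± 0.82 (adjusted p = 0.0388), with 193 and 739 counts against 130 and 665. Ankrd1, another YAP target, had -1.64 ± 1.10 (adjusted p = 0.299), and Ccn3 of the CCN family had -2.43 ± 0.87 (adjusted p = 0.0689).

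Chac1, Trib3 and Nupr1, genes of the cellular stress response, were far apart between the 2 controls. Of 14 genes of the ATF4 and stress response list, 10 were tested and 0 called (edgeR), against 29.0% of all tested genes. Their median log2 fold change was -0.22. All 10 were higher in control replicate 2 than in replicate 1, against 47.4% of all tested genes. Their median log2 ratio between the controls was 1.24. Chac1, which degrades glutathione, had 39 and 27 counts in the spermidine libraries and 57 and 886 in the controls. Trib3, a pseudokinase induced by ATF4, had 292 and 146 counts against 607 and 6058, and Nupr1, a stress-induced chromatin protein, 76 and 120 against 35 and 614. Raw counts are not levels here, since 1 count equals 1.14 and 0.712 CPM in the spermidine libraries and 0.145 in each control. In CPM both spermidine libraries lay between the 2 controls for Chac1, Trib3 and Nupr1. In CPM Atf3 showed the same order of libraries as these genes, with replicate 1 above replicate 2 in spermidine and below it in control. For Nupr1 the spermidine libraries hardly differed (log2 ratio -0.02). The share of all tested genes with this order was not counted.

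Among 14 tested genes of the p53 and BTG/TOB list, 0 were higher and 1 lower, against 24.9% and 4.12% of all tested genes. Their median was -0.23. Ccng1, cyclin G1 and a p53 target, fell by 1.74 ± 0.52 (adjusted p = 0.0371). Btg1, the closest relative of Btg2, had -0.13 ± 0.59 (adjusted p = 0.896). Of the 13 heat shock genes, some of which rise with Fos and Jun when tissue is handled, 11 were tested. Of these, 1 was higher and 1 lower, against 24.9% and 4.12% of all tested genes. Their median of -1.09 pools inducible genes with other chaperones, so it does not measure handling. Hspb1, a small heat shock protein, rose by 5.32 ± 1.13 (adjusted p = 0.00814) with 6 and 93 counts against 8 and 5, and it also passed the filter only through its spermidine level. Hspe1, a mitochondrial chaperonin, fell by 2.02 ± 0.58 (adjusted p = 0.0305). Hspa1a, the inducible HSP70, had 49 and 99 counts with spermidine and 10 and 577 in the controls, a log2 fold change of 0.58 ± 1.22 (adjusted p = 0.756). Its copy Hspa1b is nearly identical, so the split between those genes is uncertain.

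**Figure D4:**
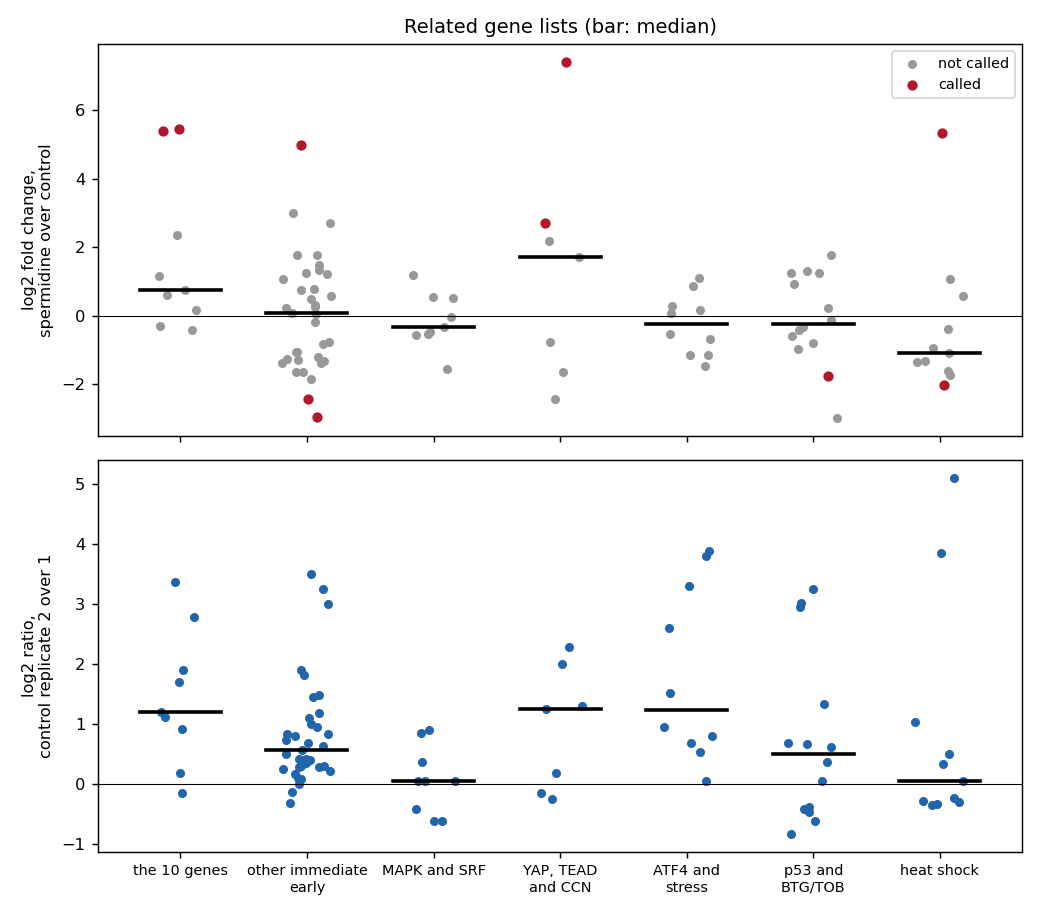
Each point is a tested gene of a list, with black bars for medians. Upper panel: log2 fold change, spermidine over control, with called genes in red; lower panel: log2 ratio of control replicate 2 over 1, whose medians are 1.20 for the 9 immediate early genes and 1.24 for the ATF4 and stress genes.

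Markers of ovarian cell types moved with the group, and their part in the levels of Ccn2, Btg2 and Ccn1, which such cells can also express, was not tested. Of 15 granulosa and theca markers, 9 were tested and 8 were higher, against 24.9% of all tested genes. The summed level of the 15 was 2338 and 7049 CPM in the spermidine libraries and 162.0 and 133.6 CPM in the controls. Inhbb, an inhibin subunit, was the most abundant, with 135 and 5498 counts against 17 and 23. Of 13 stroma and mural markers, 10 were tested and 7 were higher, with 2167 and 11190 CPM against 85.2 and 185.1 CPM, led with spermidine by the collagen gene Col3a1. All 6 tested of 12 oocyte markers, all 3 tested of 9 endothelial markers and all 5 tested of 8 epithelium and mesothelium markers were higher. Their summed levels ran from 106.3 to 2401 CPM over the spermidine libraries and from 0.435 to 2.75 CPM over the controls. Padi6, Tie1 and Krt8 led these lists with spermidine. Markers with 0 counts in both controls were 7 granulosa and theca genes (Amh, Amhr2, Cyp19a1, Hsd3b1, Inhba, Nr5a1, Nr5a2) and 5 oocyte genes (Figla, H1f8, Nlrp5, Nobox, Zp2). So were 7 endothelial genes (Cdh5, Emcn, Eng, Kdr, Pecam1, Tek, Vwf), Krt19 and Lhx9 of the epithelium, and Myh11 of the mural cells. Many of these had few bases of their own, such as 0 for Pecam1 and Amh, and could hardly be counted in any library, whereas Kdr had 1013 and Inhba 3275. With spermidine Kdr had 8 and 51 counts and Nr5a2 6 and 47, but Inhba had 4 and 0, Figla 1 and 0 and Nobox 0 and 0. A marker at 0 in both controls thus need not differ between the groups. Most of those called passed the low-count filter through the spermidine libraries alone (6 of 8 granulosa and theca, 4 of 7 stroma, and every one of the oocyte, endothelial and epithelium genes), so these counts are no independent support.

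Leukocyte and mast cell markers ran the other way in sum, with 428.8 and 205.0 CPM in the spermidine libraries and 1560 and 1115 CPM in the controls. Of 14 such genes 5 were tested, 1 higher and 3 lower, against 24.9% and 4.12% of all tested genes, and the list did not move one way. Lyz2, a myeloid lysozyme and the most abundant with spermidine, was the 1 that rose, by 4.43 ± 0.66 on the log2 scale (adjusted p = 0.00496), with 239 and 190 counts against 81 and 49. The 3 lower genes were Plek, with 82 and 58 counts against 7913 and 5844, Fcer1g, with 35 and 23 against 1799 and 1186, and Cpa3, with 10 and 7 against 924 and 549. Csf1r, Fcer1a, Laptm5, Ms4a2, Ptprc and Spi1 had 0 counts in both controls and, apart from 3 counts of Ptprc in spermidine replicate 1, with spermidine too. Apart from Spi1 with 407, they had only 18 to 196 bases of their own, so most could hardly be counted in any library. Spi1 had more such bases than Cpa3, which had 377 and was counted in every library. Germline markers check the labelled cell type. Over the 4 libraries together Ddx4, the germ cell helicase, had 1 count and Dazl, an RNA-binding protein of germ cells, had 3. Dppa3, a maternal chromatin factor, led the list with spermidine, with 9 and 263 counts against 2 and 3. The summed level of all 11 markers was 210.4 and 439.9 CPM in spermidine and 292.0 and 278.5 CPM in control, where Tex19.1, known for repressing transposons in the germline, held 1955 and 1770 counts. Of 6 tested, 5 were higher, 4 of them tested only through their spermidine level, and Tex19.1 was lower. Ddx4 and Dazl, defining markers of the labelled cell type, were thus nearly absent. Only 434 and 432 bases of them could be counted, but Cpa3, with 377 such bases, had 924 and 549 counts in the controls. Whether the few bases account for the low counts was not tested. Mael, a germline marker with 1546 countable bases, had 7 and 41 counts with spermidine against 0 and 1 in control. Prdm1, a regulator of germ cell fate with 3311 countable bases, had 11 and 0 counts with spermidine against 0 and 0 in control. At the 3.20 receptor counts per kilobase of spermidine replicate 1, those 11 counts are near background and are no sign of expression.

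**Figure D5:**
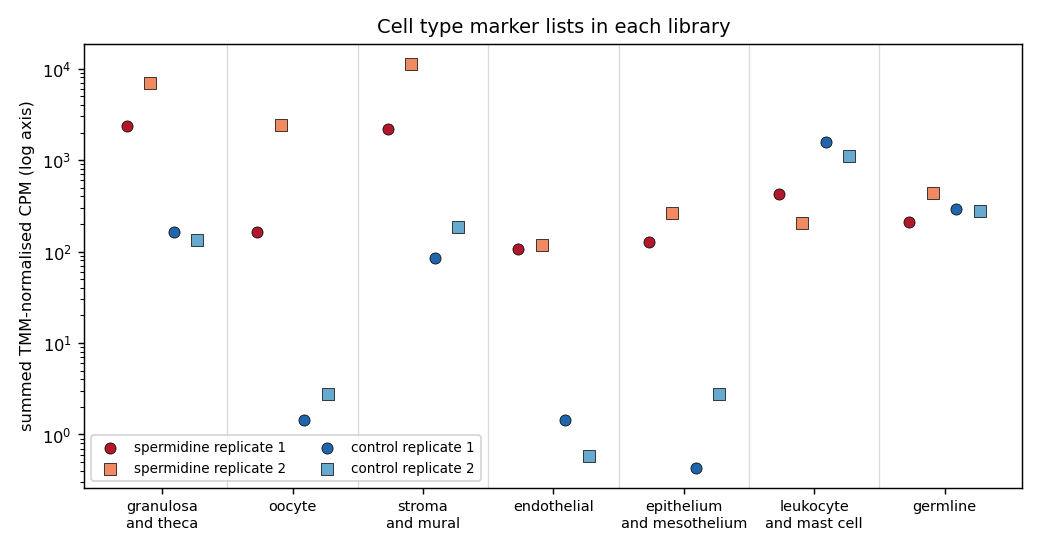
Summed TMM-normalised CPM of each cell type marker list on a log axis, 1 point per library. Granulosa, oocyte, stroma, endothelial and epithelium lists are higher in both spermidine libraries than in both controls, the leukocyte list is lower in both, and the germline list overlaps.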

How the data were processed

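The deposited table holds raw whole-number counts per RefSeq transcript row for 4 libraries. The labels name no counting program and no strand setting, so reads of overlapping and antisense genes cannot be told apart. The aligner HISAT2, the package DESeq2 and the build mm9 appear, per the submitters' processing notes, without roles. On GRCm38, 88.5% of matched rows fell within the span of their gene, so coordinates are read as GRCm38. Per the file headers, exon lengths are in bases.

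Of 106519 rows, 80.8% matched a symbol in the GRCm38.p6 RefSeq table; counts were summed per gene. Genes passed filterByExpr (count minimum 10, total minimum 15), and edgeR 4.0.16 in R 4.3.3 gave TMM factors and the quasi-likelihood test (glmQLFit, then glmQLFTest), with group as the only term and Benjamini-Hochberg adjustment over 7836 genes. The SE beside each edgeR value was back-calculated as the absolute log2 fold change over the square root of the test's F statistic. The procedure was tested on simulated data in which few genes changed, up and down alike. Many genes were called here, mostly higher, so that test does not cover the setting of these data. Replicates were not duplicates (chi-square over degrees of freedom 17.1 in spermidine, 21.2 in control). Alternatives used limma 3.58.1, DESeq2 1.42.0, other scalings, filters, a replicate block, thinning by draws without replacement, background subtraction and left-out libraries; edgeR's legacy test was added after the data were seen.

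The members, related lists and markers were chosen with earlier results of these data known. The text names all 10 members and, of each related list, the called gene with the smallest p in each direction and the largest change. Of marker lists it names the most abundant gene in spermidine. Other genes named were chosen after their values were seen.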

Additional observations from a re-analysis of the deposited data

How the results depend on the processing

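Of all tested genes 2273 were called with the 4 libraries. Filtering on 1 CPM in each library left 280 calls, thinning to 554572 counts without AY036118 left 815, subtracting the receptor background 1491, and an adjusted p under 0.01 left 1373. Without any low-count filter edgeR called 0, with 4527 genes under 0.05 unadjusted. Leaving out a library gave 0 to 3725 calls, in fits that assume the lone library varies like the other group. The count was 558 when spermidine replicate 1 was dropped and 3725 when spermidine replicate 2 was. It was 1527 for control replicate 2 and 0 for control replicate 1, where 1958 genes were under 0.05 unadjusted (edgeR). Of the members 2 of 9 were called. This became 1 of 8 with the 1 CPM filter, where Btg2 was not tested, and 0 of 10 without a filter, where 2 were under 0.05 unadjusted (edgeR). Leaving out a library gave 0 to 2 members: 1, Ccn2, when spermidine replicate 1 was dropped, and 0 for control replicate 1, with 2 under 0.05 unadjusted. The cause was not tested. Deviations of same-numbered libraries correlated at -0.0299 across genes, which shows no pairing by replicate number but cannot exclude it. The log2 ratio between replicates had an SD of 1.87 in spermidine and 0.804 in control, so noise could hide a pairing. With the replicate block, 1800 genes and the same 2 members, Btg2 and Ccn2, were called.

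No member that changed sign was called under any setting. Junb, 0.17 in the reported fit, was -0.17 with no filter, -0.04 with the replicate block and -0.02 with limma-voom. Atf3, -0.41 in the reported fit, was 0.08 with the 1 CPM filter, 0.23 with the replicate block, 0.01 with limma-voom and 0.33 when thinned. Ier2, -0.30 in the reported fit, was 0.06 with the 1 CPM filter and 0.35 when thinned. With a library left out, log2 fold changes ran from -2.30 to 2.49 for Atf3, -1.29 to 1.98 for Fos, -0.59 to 1.42 for Egr1, -1.05 to 0.83 for Junb and -0.72 to 0.42 for Ier2. Jun stayed between 0.03 and 1.88 in 17 alternatives, Btg2 between 3.83 and 8.46 in 16, and Ccn2 between 4.21 and 6.12 and Ccn1 between 1.18 and 3.54 in 17. Upper-quartile factors moved the median log2 fold change over all tested genes to 0.37, against 0.23 with TMM. A count of 3, the limit that a count of 0 allows, is 3.81 and 1.75 CPM of the total in the spermidine libraries and 0.416 and 0.421 in the controls.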
